A study of Homo sapiens with 12 samples.

Results

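Expression and m6A peaks were examined for the transcription factors of the AP-1 and MAF families in A375 cells, a human melanoma line with mutant BRAF. The 10 genes were FOS, FOSL1, FOSL2, JUN, JUNB, JUND, MAF, MAFF, MAFG and MAFK, out of 29696 genes in the expression table. They were selected by gene name, with their measured expression and peaks in these same libraries already known, so their differences between the groups are given as a description and without a p-value. The cells carried a short hairpin RNA against ALKBH5 (shALKBH5) or a control hairpin (shCtrl) delivered by lentivirus. Both groups shared the same parental line, and which of the study's ALKBH5 hairpins was sequenced is not given in the sources used here. Each group had 3 libraries of input RNA, which give expression in FPKM (sequenced fragments per length of transcript, relative to all fragments mapped in that library), and 3 libraries of RNA immunoprecipitated with an m6A antibody (IP), for which the peaks were read from 1 list per group.

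ALKBH5 is a demethylase that removes the methyl group of m6A from RNA. AP-1 is a dimer of a FOS and a JUN protein, or of 2 JUN proteins, which binds DNA through a basic leucine zipper and answers growth factor and stress signals passed on by MAP kinases. MAF proteins belong to the same leucine zipper class. The large proteins, such as MAF, carry an activation domain, whereas the small proteins MAFF, MAFG and MAFK lack it and act through partners such as NRF2 and the BACH proteins. In melanoma cells with mutant BRAF, FOSL1 is a well known output of the MAP kinase pathway.

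The ALKBH5 level was 3.39, 3.92 and 3.12 FPKM in the shALKBH5 libraries and 19.3, 17.8 and 17.6 FPKM in the shCtrl libraries, a log2 fold change of -2.36. Library sums ran from 212760 to 223231 FPKM, the depth in reads is unknown, and the Pearson correlation between libraries was 0.981 to 0.984 within a group and 0.929 to 0.934 between groups. SOX10, a factor of the melanocyte lineage, lay at 179 to 192 FPKM in all 6 libraries. MITF, the master regulator of that lineage, was low and passed the threshold as higher in shALKBH5 (1.26 ± 0.332 against 0.777 ± 0.203 FPKM, SD, n = 3, adjusted p = 0.04751, limma), with overlapping groups and a call lost in 8 of 13 alternatives, among them leaving out shALKBH5 replicate 1 or 3 or shCtrl replicate 1 or 3 (log2 fold change 0.35 to 0.83 over all of them). The pigment genes TYR, TYRP1 and DCT lay at 0.187 FPKM or less and PMEL, too low to be tested, at 0.611 ± 0.116 against 0.237 ± 0.0629 FPKM, and the endothelial genes PECAM1, VWF and CDH5 at 0.321 FPKM or less. S100B, another melanocyte marker, was higher in shALKBH5 (82.1 ± 3.03 against 32.9 ± 1.35 FPKM, SD, n = 3). CD68, a lysosomal protein known as a macrophage marker, was higher too (40.4 ± 2.06 against 16.2 ± 1.24 FPKM). Of the other markers, LUM (2.61 ± 0.549 against 1.16 ± 0.0299 FPKM) and KRT10 (10.8 ± 0.458 against 8.17 ± 0.254 FPKM) were higher and KRT14 (0.369 ± 0.144 against 0.961 ± 0.122 FPKM) was lower in shALKBH5, while the fibroblast genes COL1A1, COL1A2 and DCN stayed at 0.605 FPKM or less. The part of these markers in the results was not tested, and MLANA, KRT5, KRT1, PTPRC and CD3E were not analysed here. In bulk RNA, fewer cells with a transcript and less of it per cell cannot be told apart.

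Expression was compared by limma on log2(FPKM + 0.1) over the 12985 genes whose mean reached 0.5 FPKM, with Benjamini-Hochberg adjustment and a threshold of 0.05. All 10 AP-1 and MAF genes passed this filter. Of these, 9 passed the threshold, 7 with a higher and 2 with a lower level in shALKBH5, against a background of 61.0% of all tested genes past it, 34.7% higher and 26.2% lower. The 3 values of one group did not overlap those of the other for 9 of the 10 genes, where 67.0% of all tested genes showed no overlap. The median log2 fold change was 0.63 over the 10 genes and 0.09 over all tested genes. Log2 fold changes below are shALKBH5 minus shCtrl on this scale, with the standard error of the fit.

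**Figure D1:**
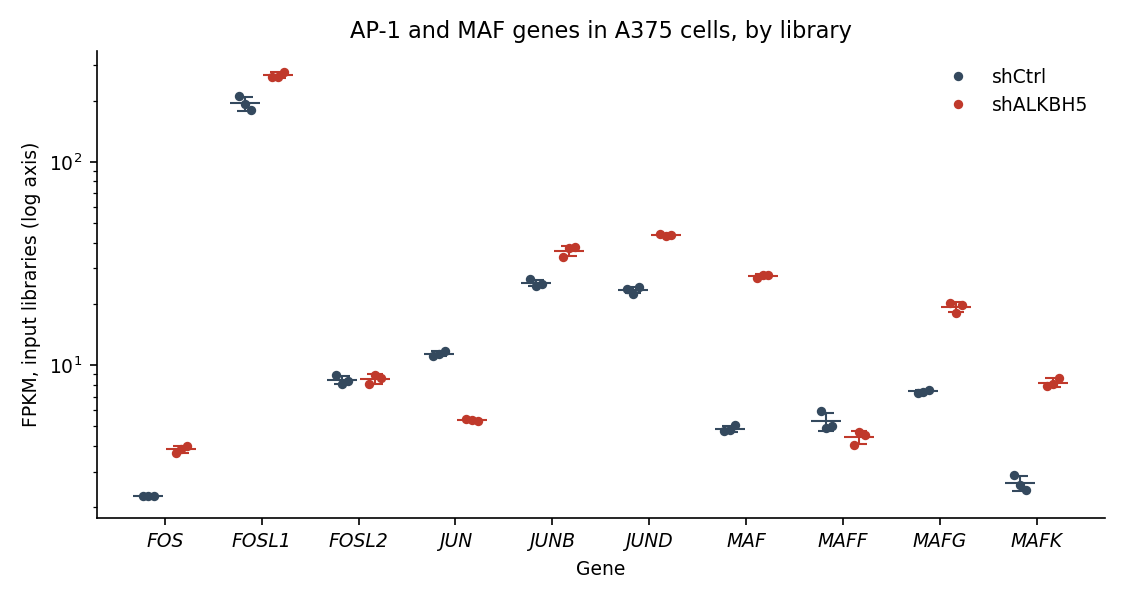
Level of each AP-1 and MAF gene in FPKM (log axis) in the 3 shCtrl (dark) and 3 shALKBH5 (red) input libraries, with points for libraries and bars for the mean ± SD. FOSL1 lies far above the other genes in both groups, MAF shows the widest gap between groups, and only FOSL2 has overlapping groups.

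FOSL1, which encodes FRA-1, was by far the most abundant of the FOS genes. Its level was 262, 261 and 276 FPKM in shALKBH5 and 210, 192 and 180 FPKM in shCtrl. Every shALKBH5 library lay above every shCtrl library, and the log2 fold change was 0.46 ± 0.0597 (SE). The gene stood at the 98.8th percentile of the tested genes by level in shCtrl and at the 99.1th in shALKBH5. FOS, the classical immediate early gene, was the lowest of the 10 genes in both groups. It measured 3.72, 3.86 and 4.01 FPKM in shALKBH5 against 2.28, 2.26 and 2.26 FPKM in shCtrl, a ratio of 1.70. The groups were well apart, with a log2 fold change of 0.74 ± 0.0651 (SE). FOSL2, which encodes FRA-2, measured 8.06, 8.94 and 8.69 FPKM in shALKBH5 and 8.91, 8.08 and 8.40 FPKM in shCtrl. Its groups overlapped and it did not pass the threshold, with a log2 fold change of 0.02 ± 0.0624 (SE).

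The JUN genes did not move in the same direction. JUN, the strongest activator among the JUN proteins, measured 5.47, 5.35 and 5.33 FPKM in shALKBH5 and 11.1, 11.4 and 11.7 FPKM in shCtrl. The ratio of the means was 0.472, and no library of one group came near the other group. JUND, which in many cells is expressed without a stimulus, moved the other way, with 44.3, 43.1 and 43.6 FPKM in shALKBH5 against 23.6, 22.4 and 24.1 FPKM in shCtrl. JUNB, often a weaker activator than JUN, measured 34.2, 37.5 and 38.1 FPKM in shALKBH5 and 26.4, 24.6 and 25.2 FPKM in shCtrl. Both were higher in every shALKBH5 library. The log2 fold changes were -1.07 ± 0.0483 for JUN, 0.90 ± 0.0413 for JUND and 0.52 ± 0.0540 for JUNB (SE).

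MAF, the large MAF protein among the 10 genes, had the largest difference of them. It measured 26.7, 27.7 and 27.8 FPKM in shALKBH5 and 4.75, 4.80 and 5.06 FPKM in shCtrl. The spread within each group was small beside the gap, the ratio of the means was 5.64, and the log2 fold change of 2.47 ± 0.0474 (SE) stood at the 99.7th percentile of the tested genes. Among the small MAF genes, MAFK measured 7.87, 8.10 and 8.66 FPKM in shALKBH5 and 2.89, 2.57 and 2.44 FPKM in shCtrl. MAFG measured 20.2, 18.1 and 19.7 FPKM in shALKBH5 and 7.33, 7.40 and 7.57 FPKM in shCtrl. Both were higher in every shALKBH5 library, with ratios of 3.12 for MAFK and 2.61 for MAFG. MAFF, a small MAF gene induced by stress and cytokines, measured 4.05, 4.67 and 4.54 FPKM in shALKBH5 and 5.93, 4.93 and 5.04 FPKM in shCtrl. The groups were only just apart, and the log2 fold change of -0.25 ± 0.0918 (SE) lost its place past the threshold in 8 of 13 alternative settings, among them leaving out any shALKBH5 library (replicate 1, 2 or 3) or shCtrl replicate 1 or 3, where it ran from -0.33 to -0.17 over all of them.

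**Figure D2:**
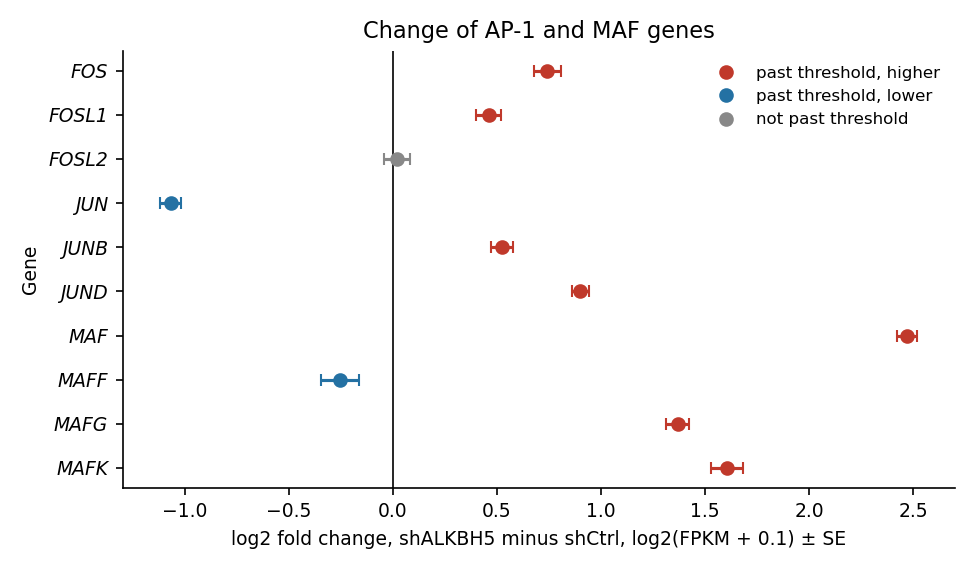
Log2 fold change (shALKBH5 minus shCtrl, log2(FPKM + 0.1)) of each gene with its standard error, coloured by direction and by whether it passed the threshold. JUN at -1.07 and MAFF at -0.25 lie below 0, FOSL2 lies at 0.02, and the other 7 genes lie above 0, up to 2.47 for MAF.

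FPKM is scaled by transcript length, so levels were set side by side between genes. Other differences in how genes are measured remain, and the spread between libraries does not show them, so the order of genes with close levels is not firm. In shCtrl the order of the mean levels was FOSL1, JUNB, JUND, JUN, FOSL2, MAFG, MAFF, MAF, MAFK and FOS, and among neighbours in this order only MAFF and MAF had overlapping libraries. In shALKBH5 it was FOSL1, JUND, JUNB, MAF, MAFG, FOSL2, MAFK, JUN, MAFF and FOS, where only FOSL2 and MAFK overlapped. JUN therefore stood at place 4 in shCtrl and at place 8 in shALKBH5, while MAF stood at place 8 in shCtrl and at place 4 in shALKBH5.

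The summed level of the FOS genes was 279 ± 8.88 FPKM in shALKBH5 and 205 ± 15.5 FPKM in shCtrl (SD, n = 3), that of the JUN genes was 85.7 ± 1.57 and 60.2 ± 1.48 FPKM, and that of the small MAF genes was 32.0 ± 1.02 and 15.4 ± 0.675 FPKM. FOSL1 made up 95.5% ± 0.195 of the FOS sum in shALKBH5 and 94.7% ± 0.300 in shCtrl, so both groups were dominated by the same gene. The makeup of the JUN sum differed more. JUN gave 6.29% ± 0.201 of it in shALKBH5 against 19.0% ± 0.690 in shCtrl, and JUND gave 51.0% ± 1.52 against 38.8% ± 0.607. The share of JUNB, 42.7% ± 1.72 against 42.2% ± 0.985, overlapped between the groups. Among the small MAF genes, the share of MAFF was 13.8% ± 1.26 in shALKBH5 and 34.4% ± 1.99 in shCtrl. The shares of MAFG (60.5% ± 2.20 against 48.4% ± 2.65) and MAFK (25.7% ± 1.04 against 17.1% ± 0.828) were larger in shALKBH5. These are shares of transcript levels, and protein was not measured in these data.

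**Figure D3:**
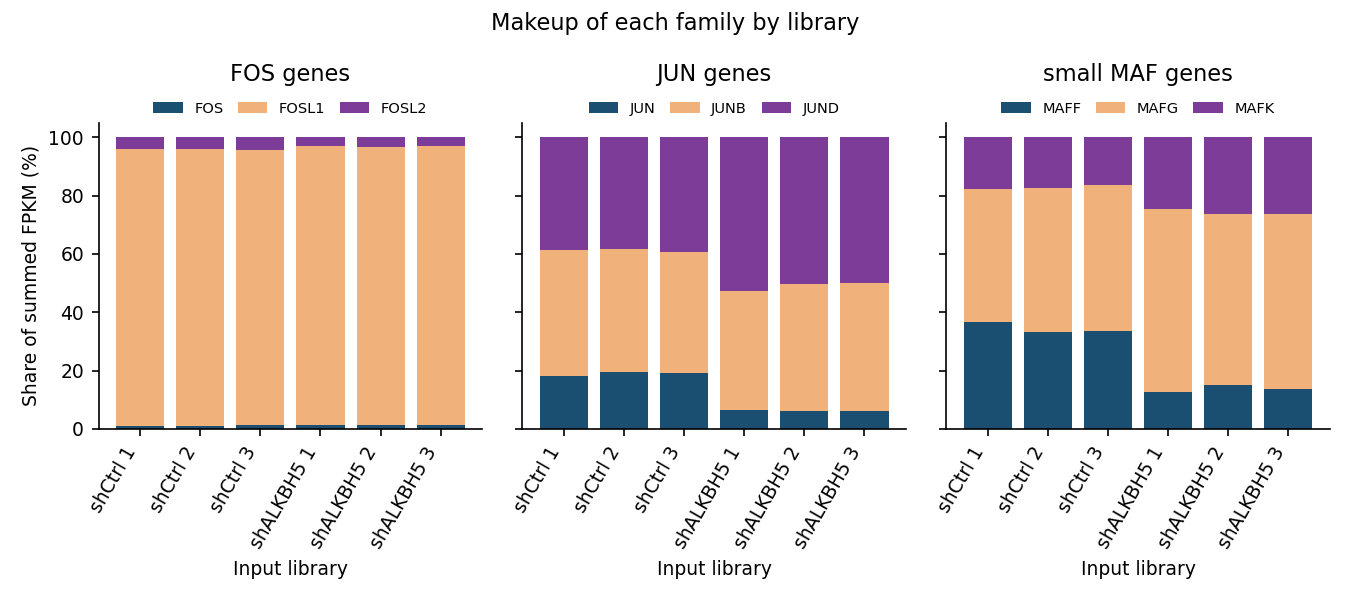
Share of each gene (%) in the summed FPKM of the FOS, JUN and small MAF genes, with 1 bar per input library. FOSL1 fills about the same share in all 6 libraries, whereas JUN and MAFF fill smaller shares in the 3 shALKBH5 libraries than in the 3 shCtrl libraries.

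Several of these genes are known to be controlled by AP-1 or the related CREB and ATF proteins at their own promoters, so the RefSeq promoters (GRCh38.p14, 250 bases before to 50 after each start site) were searched on both strands for the AP-1 site TGANTCA, the CRE site TGACGTCA and the variant TGACATCA. None of the 3 motifs contains another. Among 35116 promoters of 300 bases, 7.71% held TGANTCA, 1.85% held TGACGTCA and 2.61% held TGACATCA. Of the 10 genes, 8 had a promoter in the table, with 9 promoters in all, and FOSL1 and MAFK had none. TGANTCA matched 1 of the 9 promoters (FOSL2), TGACGTCA matched 3 (MAF, JUND and MAFF) and TGACATCA matched 1 (JUN). The matches are shown because JUN and MAF had the widest differences in opposite directions. The windows of 30 bases below are written 5′ to 3′ on the strand of the gene, with the motif in capitals.
JUN: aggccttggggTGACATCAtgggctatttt
MAF: tcatttggaccTGACGTCAcgagtgctata
JUND: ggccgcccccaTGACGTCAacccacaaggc
MAFF: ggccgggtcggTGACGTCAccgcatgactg
FOSL2: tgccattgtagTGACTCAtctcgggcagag
The JUN window lies at chr1:58784096-58784125 on the minus strand, with its motif 67 bases before the start site. The MAF window lies at chr16:79600764-79600793 on the minus strand, 45 bases before the start. The JUND window lies at chr19:18281804-18281833 on the minus strand, 200 bases before the start. The MAFF window lies at chr22:38201929-38201958 on the plus strand, 54 bases before the start. The FOSL2 window lies at chr2:28392851-28392880 on the plus strand, with its motif from base 5 after the start. The 3 genes that hold TGACGTCA differed in opposite directions, MAF and JUND with higher and MAFF with lower levels in shALKBH5. These are matches of letters, and binding was not measured.

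All 10 genes carried at least 1 m6A peak in each list, where 86.0% of the tested genes had a peak in the shALKBH5 list and 85.5% in the shCtrl list. The shALKBH5 list held 27 of their peaks and the shCtrl list held 24. With a fold of 2 or more and an FDR of 0.01 or less, termed strict here, 19 peaks remained in shALKBH5 and 20 in shCtrl. Of all peaks in the respective lists, 66.6% and 68.4% were strict. An FDR above 0.05 was listed for 2 of the 27 and 1 of the 24, in MAFF and MAFG. The authors' annotation placed 18 of the 27 in the 3'UTR and 9 in the 5'UTR, and in shCtrl 17 of the 24 in the 3'UTR, 5 in the 5'UTR, 1 in an exon and 1 in an intron. The share in the 3'UTR was thus 66.7% and 70.8%, against 45.5% and 46.2% of all peaks of the respective lists. The share in the 5'UTR was 33.3% and 20.8%, against 16.6% and 16.98% of all peaks, and among the strict peaks 4 lay in the 5'UTR in each list. JUN, JUNB and JUND have no introns, and peaks that covered most of their transcripts were still labelled as 3'UTR peaks, so the label does not place the m6A there. The median fold enrichment of IP over input was 5.19 for the peaks of the 10 genes in shALKBH5 and 4.46 in shCtrl, against 5.31 and 5.25 for all peaks. There was a single list per group, so peak values have no error and no test.

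The highest enrichment was in MAFK. Its peak at chr7:1541063-1541633 had the same ends in both lists, with a fold of 51.1 in shALKBH5 and 45.3 in shCtrl. The neighbouring peak that the lists share in part, chr7:1539182-1540883 in shALKBH5, had a fold of 6.99 against 9.27. The longest MAFK peak, chr7:1530702-1537650 in shALKBH5, was labelled 5'UTR, with a fold of 7.29 against 3.93. Between its ends it spanned 56.3% of the gene. Such parts of a gene, here and below, are counted along the genome with introns included, so they are not parts of the transcript where a gene has introns. At the 3' end, the peak at chr7:1542683-1543043 in shALKBH5 had a fold of 2.71 against 4.41. Folds thus differed both ways within this gene. The shALKBH5 list held 4 peaks in MAFK and the shCtrl list 5, of which the shCtrl peak at chr7:1541783-1542443, with a fold of 2.34, had no overlap in shALKBH5.

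JUN had the second highest enrichment. In shCtrl a single peak at chr1:58781388-58784047 covered 81.7% of the gene with a fold of 24.2. In shALKBH5, 2 peaks lay within this interval, chr1:58781388-58782494 with a fold of 24.5 and chr1:58782763-58784047, labelled 5'UTR, with a fold of 3.93. Together they covered 73.4% of the gene. The shCtrl peak has a single fold for the whole interval, so neither part has a shCtrl fold of its own to be set against. JUNB had 1 peak at chr19:12791486-12793285 in both lists, which covered 98.4% of the gene, with a fold of 8.39 in shALKBH5 and 9.54 in shCtrl. JUND had 2 nested peaks with the same ends in both lists. The outer, which covered the whole gene, had a fold of 10.3 against 12.2, and the inner had 5.19 against 7.18.

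MAF carried peaks over its 5' part in both lists. The first, chr16:79598853-79600737 in shALKBH5, had a fold of 8.48 against 9.95 for its overlapping peak in shCtrl. Next to it, the single shALKBH5 peak at chr16:79596520-79598733, with a fold of 6.86, met 2 shCtrl peaks with folds of 8.47 and 2.83. The covered part of the gene was close, 28.9% in shALKBH5 and 27.1% in shCtrl, beside the ratio of 5.64 in its input level. MAFG had weak peaks, 5 in shALKBH5 and 3 in shCtrl, none above a fold of 3.10, which covered 12.3% and 3.51% of the gene. Only 1 of them in each list was strict, and it lay where the gene SIRT7 overlaps MAFG on the same strand. Whether this peak belongs to MAFG or to SIRT7 cannot be told. MAFF shared its 3'UTR peak at chr22:38214955-38215671 between the lists, with a fold of 2.88 against 2.83.

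Among the FOS genes, the 3'UTR peak of FOSL1 at chr11:65892049-65892947 in shALKBH5 had a fold of 5.53 against 7.28 in shCtrl. FOS had a peak at chr14:75280414-75281545 in shALKBH5 with a fold of 5.42, against 4.45 for the overlapping shCtrl peak, and a further weak peak with a fold of 1.69 in shALKBH5 alone. FOSL2 had a peak at its 5' end with a fold of 11 in shALKBH5 and 14 in shCtrl, and a long 3'UTR peak with a fold of 11.2 and 9.98. Its peak at the 3' end, with a fold of 6.12, was listed in shALKBH5 alone.

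Across the 10 genes, 22 of the 27 peaks in shALKBH5 and 22 of the 24 in shCtrl shared 1 bp or more with a peak of the other list, strand included, a share of 81.5% and 91.7% where 78.1% and 81.3% of all peaks did so. These formed 25 overlapping pairs, of which 8, in JUN, JUND and MAF, shared a peak with another pair. In the other 17 the fold was higher in shALKBH5 in 8 and lower in 9. Of the 6 pairs with the same ends in both lists, 2 had a higher and 4 a lower fold in shALKBH5. The folds thus went both ways. The authors' table of differential peaks held 12 entries for 8 of the 10 genes, 11 labelled 3'UTR and 1 labelled 5'UTR, and none for MAFF or MAFG, where 32.7% of the tested genes had an entry.

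**Figure D4:**
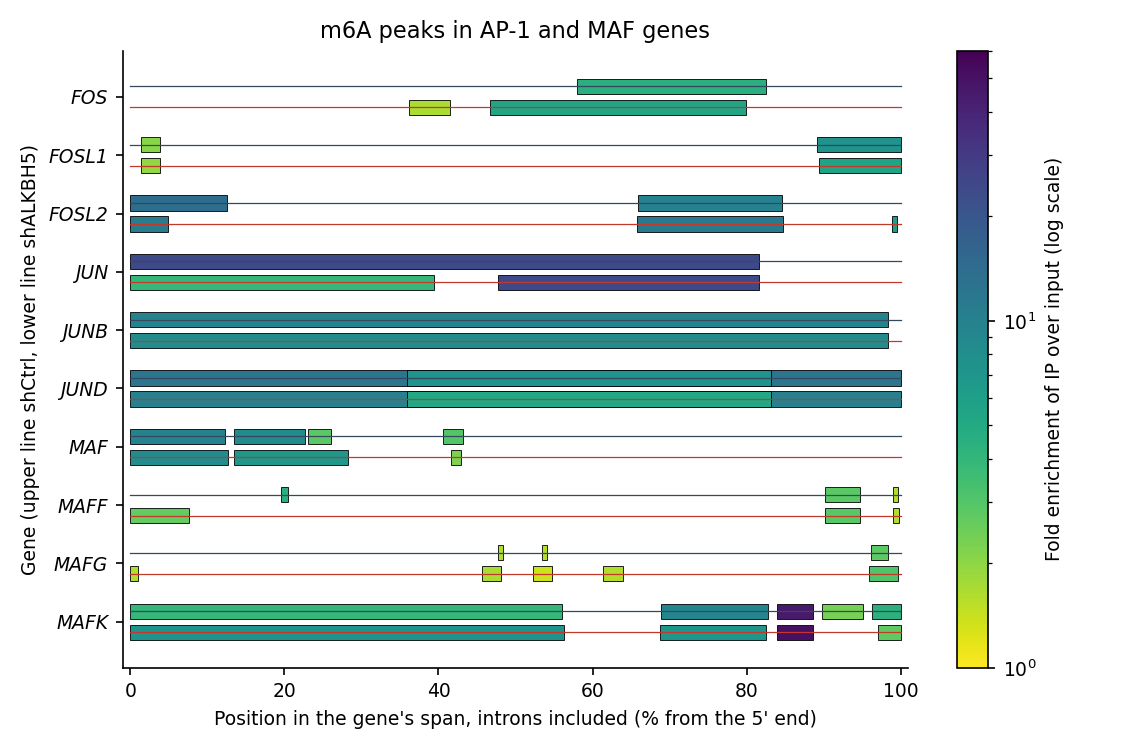
Peaks of each gene as boxes along the gene's span (% from the 5' end, introns included), the upper line for shCtrl and the lower for shALKBH5, coloured by fold enrichment of IP over input (log colour scale). Most boxes recur in both lines, the darkest box is in MAFK (51.1 and 45.3), and the single JUN box of shCtrl is split in shALKBH5 into a dark 3' box and a pale 5' box.

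Reads can be shared between overlapping genes, and the library kit keeps the strand, but whether the counting used it is not given in the sources used here. Genes that overlap one of the 10 or lie within 5 kb of it were therefore listed. SIRT7 overlaps MAFG by 3054 bp on the same strand and rose (log2 fold change 0.60, adjusted p = 0.002068, limma), so the signal of MAFG and SIRT7 may be shared in part. The lncRNA MAFG-DT, which starts 93 bp from MAFG on the opposite strand, rose as well (0.69, adjusted p = 0.0009034), as did PYCR1 (0.34, adjusted p = 0.005677). HOOK2 spans all 1830 bp of JUNB on the opposite strand and gave a log2 fold change of -0.01, and PRDX2 on the other side of JUNB gave 0.00, neither past the threshold. PLA2G6 overlaps MAFF by 14012 bp on the opposite strand and did not pass the threshold (0.04), whereas TMEM184B, 2783 bp away, rose (0.79, adjusted p = 1.392e-05). Beside FOSL1, CCDC85B rose (0.38, adjusted p = 0.0002528) and FIBP fell (-0.41, adjusted p = 0.0004278). TMEM184A overlaps MAFK by 809 bp on the opposite strand and, with means of 0.601 FPKM in shALKBH5 and 0.254 FPKM in shCtrl, was below the filter. The remaining neighbours, FLJ31356, AC104695, LINC01135, MIR3188, RPL39P38, AC009159 and AC145207, were below the filter as well.

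The other proteins that pair with the AP-1 and MAF genes, or act before or after them, were given by 6 lists of textbook genes. Of the relatives of AP-1 outside the 10 genes, 7 were tested, 1 rose, 3 fell and 3 did not pass the threshold, with a median log2 fold change of 0.01. This share of 57.1% was close to the background of all genes. JDP2, a repressor that pairs with JUN proteins, fell by 1.11 on the log2 scale (adjusted p = 0.0003703, limma), from 1.37 ± 0.130 FPKM in shCtrl to 0.580 ± 0.0782 FPKM in shALKBH5. BATF3, which also pairs with JUN proteins, fell by 1.10 (adjusted p = 0.002072). ATF3, a stress-induced partner, was the other that fell (log2 fold change -0.59, adjusted p = 0.001838). The pseudocount sets the size of a change at such low levels, and with 1 FPKM in place of 0.1 the log2 fold changes were -0.58 for JDP2, -0.44 for BATF3 and -0.38 for ATF3, all still past the threshold. ATF7, a CRE-binding relative, rose by 0.17 (adjusted p = 0.04341), a call lost in 10 of 13 alternatives. FOSB, the remaining FOS gene, measured 1.47 ± 0.0353 FPKM in shALKBH5 and 1.35 ± 0.0274 FPKM in shCtrl and did not pass the threshold.

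Among the partners of the small MAF proteins and the other large MAF proteins, 6 were tested, 1 rose, 2 fell and 3 did not pass the threshold, with a median of -0.10. The share past it was 50.0%, against 61.0% of all tested genes. NFE2L3, which pairs with small MAF proteins, rose (log2 fold change 0.91, adjusted p = 8.769e-05, limma). NFE2, the erythroid member of that family, fell (-0.88, adjusted p = 0.0004238), and so did NFE2L1 (-0.30, adjusted p = 0.0005108). NFE2L2, which encodes NRF2, measured 4.84 ± 0.811 FPKM in shALKBH5 and 4.40 ± 0.792 FPKM in shCtrl, with overlapping groups and no call. The repressor BACH1 and the NRF2 adaptor KEAP1 also did not pass the threshold, with log2 fold changes of -0.29 and 0.09.

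Of the upstream kinases and factors, 18 were tested, 5 rose, 6 fell and 7 did not pass the threshold, with a median of -0.05 and a share of 61.1%, about that of all genes, and 8 to 12 past the threshold over the alternatives. ELK1, a factor that with SRF drives FOS transcription, fell (log2 fold change -1.70, adjusted p = 8.945e-07, limma), while SRF itself rose (0.62, adjusted p = 2.114e-05). The kinase MAP2K4, which activates the JUN kinases, rose (1.03, adjusted p = 0.0001023), and the JUN kinase MAPK9 fell (-0.56, adjusted p = 0.004005).

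The other immediate early genes, which are induced together with FOS and JUN, had 15 tested members, of which 8 rose, 5 fell and 2 did not pass the threshold, a share of 86.7% past it where all tested genes had 61.0%. Their median log2 fold change was 0.39, against 0.09 for all tested genes. The number past the threshold was 13 in every alternative. NR4A2, a nuclear receptor, and KLF4, a zinc finger factor, rose (log2 fold changes 2.11 and 1.71, adjusted p = 4.042e-06 and 1.119e-05, limma). With a pseudocount of 1 FPKM, KLF4 gave 0.98. EGR1, a zinc finger factor, and CCN2, a secreted matrix protein, fell (-1.66 and -1.41, adjusted p = 1.779e-06 and 5.934e-07). Genes of this list thus moved both ways, as FOS and JUN did.

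Textbook AP-1 targets had 15 tested members, of which 4 rose, 6 fell and 5 did not pass the threshold, with a median of 0.03 and a share of 66.7% past it, near the 61.0% of all tested genes, and 9 to 11 genes past it over the alternatives. The cytokine gene IL11 rose (log2 fold change 1.74, adjusted p = 4.43e-07, limma). SPP1, which encodes osteopontin, fell (-1.58, adjusted p = 2.838e-05, limma). The collagenase MMP1 measured 1.19 ± 0.178 FPKM in shALKBH5 and 1.55 ± 0.316 FPKM in shCtrl and did not pass the threshold.

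Textbook targets of NRF2 with small MAF proteins likewise had 15 tested members, of which 4 rose, 6 fell and 5 did not pass the threshold, with a median of -0.05. OSGIN1, a growth inhibitor induced by oxidative stress, and HMOX1, heme oxygenase, rose (log2 fold changes 0.75 and 0.68, adjusted p = 0.003357 and 0.0003435, limma). SLC7A11, the cystine transporter, and FTH1, the ferritin heavy chain, fell (-0.94 and -0.77, adjusted p = 0.001598 and 2.432e-05). With a pseudocount of 1 FPKM, OSGIN1 gave 0.34 and SLC7A11 gave -0.47. Neither target list moved one way, and the share past the threshold was again 66.7% against 61.0% of all tested genes, with 8 to 11 genes of the NRF2 list past it over the alternatives.

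**Figure D5:**
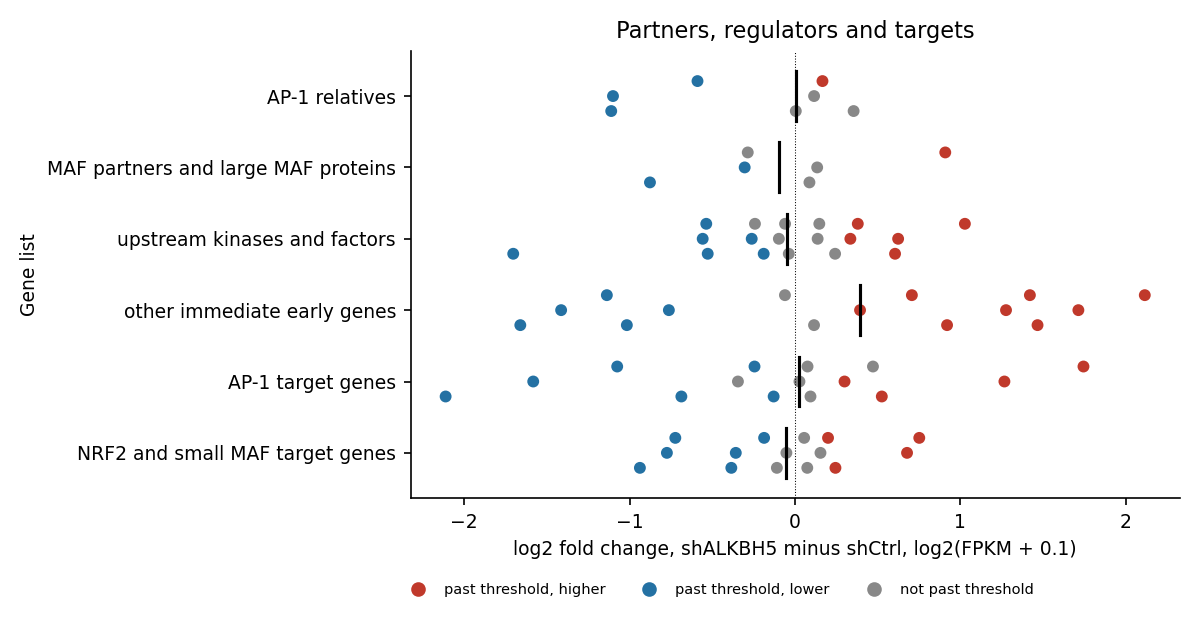
Log2 fold change (shALKBH5 minus shCtrl, log2(FPKM + 0.1)) of every tested gene of the 6 lists, coloured by direction and by whether it passed the threshold, with the median of each list as a vertical bar. Each list holds genes on both sides of 0, and the median is furthest from 0 for the other immediate early genes (0.39).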

How the data were processed

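The authors deposited FPKM for 6 input libraries, with their own fold changes and p-values, which were not used. Groups were taken from the sample titles. For each group the authors deposited 1 list of peaks, giving a ratio (fold enrichment) of IP over input and log10 p and FDR columns treated here as a score. They further deposited a table of differential peaks, used for positions only, since its fold changes and p-values are the authors' own comparison. The submitters' processing notes name mm10, a mouse build, but the identifiers are human. Gene starts equal those of GRCh38.p14 in 5 of 9 RefSeq promoters, and file coordinates are given as deposited, with peak starts changed to count from 1. The aligner, the peak caller, the pooling of libraries and the depth are not given in the sources used here.

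FPKM values are not counts, so limma 3.58.1 in R 4.3.3 (lmFit, eBayes with trend) was used, two-sided, and was tested on simulated data. Other steps used Python 3.11.15, pandas 2.3.3, numpy 2.4.6 and matplotlib 3.10.9. The labels do not say that libraries came from separate cultures, so p-values measure the spread between libraries, which may be technical. With 3 against 3 libraries an exact permutation test cannot go below 0.1. The genes and lists were chosen with earlier results of these data known. Named were the 10 genes, ALKBH5, neighbours, and in each list the 2 highest and 2 lowest log2 fold changes among genes past the threshold with groups apart. ATF3, FOSB, NFE2L2, BACH1, KEAP1, MMP1, CREB5, IL6, MAFA, BACH2 and the cell type markers were named outside that rule, after their values were seen. BATF was not analysed here, and some genes that the rule names are not reported here. The alternatives were other pseudocounts (1 and 0.01), no filter or a filter at 1 FPKM, libraries rescaled by their median ratio, a replicate block, eBayes without trend, and leaving out each library.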

Additional observations from a re-analysis of the deposited data

How the results depend on the processing

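Over 13 alternatives, 8 or 9 of the 10 AP-1 and MAF genes passed the threshold, and 8 of the 10 genes kept their direction and their side of it in all of them, the exceptions being MAFF and FOSL2. FOSL2 was on the other side of 0 after rescaling by the median ratio (-0.0577) and ran from -0.0154 to 0.0599 when a library was left out, never past the threshold. Rescaling moved the median of all genes from 0.09 to 0.01 and the share of calls that were higher from 57.0% to 49.2%. It also turned the uncalled neighbours PRDX2 (-0.0752) and PLA2G6 (-0.0251), and leaving out a library took PRDX2 from -0.0466 to 0.0652, HOOK2 from -0.0835 to 0.0517 and PLA2G6 from -0.0468 to 0.147. With a filter at 1 FPKM, 2 of 5 AP-1 relatives passed the threshold in place of 4 of 7, since fewer were tested. Of the 58 genes outside the 10 that passed the threshold (MITF and those in the 6 lists or beside the 10), 48 passed it in every alternative in which they were tested. The replicate numbers did not pair the libraries: deviations of same-numbered libraries correlated at 0.02, -0.05 and 0.06, and not every library correlated best with its own number. With the replicate block, 7271 in place of 7917 of all tested genes passed the threshold, and 8 of the 10 genes. The cause of these changes was not tested. Without read depth, no counting error could be given, and peak folds rest on 1 list per group.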

Other observations

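Some relatives of the AP-1 and MAF genes lay below the expression filter and were not tested, so their values are given alone. CREB5, which pairs with JUN, measured 0.640, 0.741 and 0.598 FPKM in shALKBH5 and 0.248, 0.316 and 0.325 FPKM in shCtrl, so its groups did not overlap. The cytokine gene IL6, a textbook AP-1 target, measured 0.387, 0.495 and 0.249 FPKM in shALKBH5 and 0.0424, 0.120 and 0.0665 FPKM in shCtrl. MAFA stayed at 0.172 FPKM or less and BACH2 at 0.231 FPKM or less in all 6 libraries, with overlapping groups.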
